A study of Mus musculus with 24 samples.

Results

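The 10 genes described here mark adipocytes, the lipid-storing cells of fat tissue: Adipoq, Cfd, Lep, Retn, Plin1, Cidec, Lipe, Fabp4, Lpl and Pparg. Every probe whose accession mapped to one of them was taken, which gave 13 of 55681 probes and 10 of 21154 named genes. Retn, Cidec and Lpl had 2 probes each, and a gene was represented by its probe with the highest mean Cy5 signal. The genes were chosen around Adipoq, which was known from these arrays to be measured in control thymocytes and mostly at background after the high dose. Differences between high dose and control are therefore descriptions without a test. The same holds for each difference of Adipoq that uses control or high dose arrays, and for its sex difference in RAR, on which its probe had been picked in the study.

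Thymocyte RNA from male and female C57BL/6J mice of 4 to 5 weeks was hybridized to 24 arrays, 3 for each sex and treatment. Control mice were not irradiated, the low dose was 0.075 Gy of X-rays, and the high dose was 1.75 Gy of γ-rays. In the RAR groups, named for the radio-adaptive response, 1.75 Gy of γ-rays came 6 h after a priming 0.075 Gy of X-rays. The arrays carried the thymocyte RNA of 1 mouse in Cy5 and the common Universal Mouse RNA in Cy3, so every level below is log2(Cy5/Cy3), or the Cy5 intensity where this is said. The thymus had been dispersed and passed through a 40 μm mesh without sorting, and the time from irradiation to collection is not given in the sources used here. The 11 markers of double-positive thymocytes were well above background in Cy5, by the flag of the scanner software, on all 24 arrays. In such a bulk preparation, fewer cells of a type and less RNA per cell cannot be told apart.

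On 22 arrays the share of spots that passed the background flag in Cy5 lay between 49.3% and 62.8%. Female RAR replicate 2 stood above this range with 71.8%, and female RAR replicate 3 below it with 34.7%. The arrays lay on 3 slides. Controls were on slides 2 (1 array) and 3 (5 arrays), the low dose on slides 2 and 3 (3 arrays each), and both the high dose and RAR on slides 1 (4 arrays) and 2 (2 arrays). RAR and control thus shared a slide only through 1 control array.

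An adipocyte stores triglyceride in a large lipid droplet and releases it as fatty acid when energy is needed. PPARG is the transcription factor that drives the formation of fat cells. Adipocytes also secrete hormones, among them adiponectin, leptin and resistin. In the thymus, fat cells lie mainly in and around the capsule and increase in number as the organ shrinks with age. Several of the genes are not exclusive to fat: Fabp4, Lpl and Pparg are also made by macrophages or endothelium, and Cfd by stroma.

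For 8 of the 10 genes, 12 promoter windows of the RefSeq table (GRCm38.p6) were at hand, each reaching from 250 bases before a transcription start to 50 bases after it. No window was matched for Fabp4 and Lpl. The windows were searched on both strands for the hexamer AGGTCA bound by nuclear receptors such as PPARG, for the direct repeat AGGTCANAGGTCA of the PPARG and RXR dimer, in which N is any base, for the C/EBP palindrome TTGCGCAA and for the TATA box TATAAA. The hexamer lay in 2 windows of Pparg, at -28 and -9 from the start, beside 16.3% of all 32851 windows. The palindrome lay in the window of Lep, at -55, beside 0.183% of all windows, and its letters are the same on both strands. TATAAA lay in 1 Pparg window, at -29 on the reverse strand, beside 13.6% of all windows, and the direct repeat lay in 0 of the 12, beside 0.0396% of all windows. The Adipoq sequence is shown as that of the leading gene, and those of Lep and Pparg for these matches, each as the upstream 250 bases on the plus strand with hexamer or palindrome in capitals. A match is a description of these letters and not of a binding site.
Adipoq (chr16:23146286-23146535): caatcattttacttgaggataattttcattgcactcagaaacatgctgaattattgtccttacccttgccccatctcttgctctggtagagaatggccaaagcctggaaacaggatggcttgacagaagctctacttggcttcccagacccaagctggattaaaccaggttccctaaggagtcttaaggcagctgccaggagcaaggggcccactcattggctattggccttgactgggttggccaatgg
Lep (chr6:29059971-29060220): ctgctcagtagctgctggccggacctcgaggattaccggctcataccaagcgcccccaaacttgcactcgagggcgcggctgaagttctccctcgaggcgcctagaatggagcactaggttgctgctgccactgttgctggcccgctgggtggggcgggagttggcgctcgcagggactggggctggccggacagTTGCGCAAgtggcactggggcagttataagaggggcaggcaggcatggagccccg
Pparg, first window (chr6:115360894-115361143): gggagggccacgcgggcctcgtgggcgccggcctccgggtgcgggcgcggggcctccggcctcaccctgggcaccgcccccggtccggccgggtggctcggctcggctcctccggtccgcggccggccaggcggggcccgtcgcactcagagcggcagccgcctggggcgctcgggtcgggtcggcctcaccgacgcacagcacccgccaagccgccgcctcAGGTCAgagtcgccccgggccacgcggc
Pparg, second window (chr6:115362099-115362348): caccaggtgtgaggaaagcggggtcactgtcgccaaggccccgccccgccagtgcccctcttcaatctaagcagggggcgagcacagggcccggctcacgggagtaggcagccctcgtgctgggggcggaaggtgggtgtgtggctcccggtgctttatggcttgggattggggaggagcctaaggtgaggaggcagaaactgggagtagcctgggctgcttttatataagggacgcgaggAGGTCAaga

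The genes differed in how many arrays measured them. Fabp4, Lpl, Pparg, Retn and Cfd were well above background in Cy5 on 24 of 24 arrays. Lipe, the hormone-sensitive lipase, was so on 18 arrays, Adipoq on 11, Cidec on 9, Plin1 on 4 and Lep on 0. Of Adipoq, Plin1, Cidec, Lep and Retn, which are made mainly by fat cells in mice, only Retn was thus measured on every array. In the Cy3 reference Adipoq was well above background on 1 array, Cfd on 9 and Plin1, Cidec and Lep on 0, so the denominators of these ratios were mostly at background, where the software sets surrogate values. For Adipoq and Cfd the Cy5 intensity is therefore given beside the ratio.

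Adipoq encodes adiponectin, a hormone secreted by fat cells. Its log2 ratio ran from 1.09 over a median of 2.72 to 3.24 in the 6 controls, from 0.06 over 1.60 to 2.44 after the low dose, from -0.04 over 0.39 to 1.98 after the high dose, and from -0.13 over 0.34 to 2.49 in RAR. The mean was 2.57 ± 0.77 (SD, n = 6) in controls, 1.44 ± 0.78 after the low dose, 0.90 ± 1.15 in RAR and 0.56 ± 0.72 after the high dose. The irradiated treatments overlapped one another and also overlapped the controls, through female control replicate 3 at 1.09. The probe passed the background flag in Cy5 on 6 of 6 control arrays, 1 of 6 low dose, 1 of 6 high dose and 3 of 6 RAR arrays.

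In Cy5 intensity the controls stood apart more clearly. Female controls gave 86.6, 170 and 55.3, and male controls 189, 119 and 109. The other treatments ran from 25.3 to 55.0 (low dose), from 8.39 to 61.9 (high dose) and from 17.8 to 79.4 (RAR). After each array was scaled to its own 75th percentile, the Cy5 level of Adipoq in controls did not overlap that of any other treatment. This and the bounds below are descriptions, since Adipoq was chosen with its control and high dose values known. The share of all probes free of overlap on this scale was not counted. On this scale the log2 difference from controls was -1.70 in RAR, -1.85 after the low dose and -2.70 after the high dose. The median of all probes itself shifted by 0.52 in RAR and by 0.16 after the low dose, and relative to these shifts Adipoq differed by -2.23 and -2.01. The neighbouring treatments RAR and low dose differed by less than their spread on both scales. As a bound, in single-channel values the female controls were at least 4.14-fold above female high dose, where 0 of 3 arrays were above background (mean log2 Cy5 of 6.99 against 3.79). The male controls were at least 3.57-fold above male low dose, where again 0 of 3 arrays were above background (7.18 against 5.01).

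**Figure D1:**
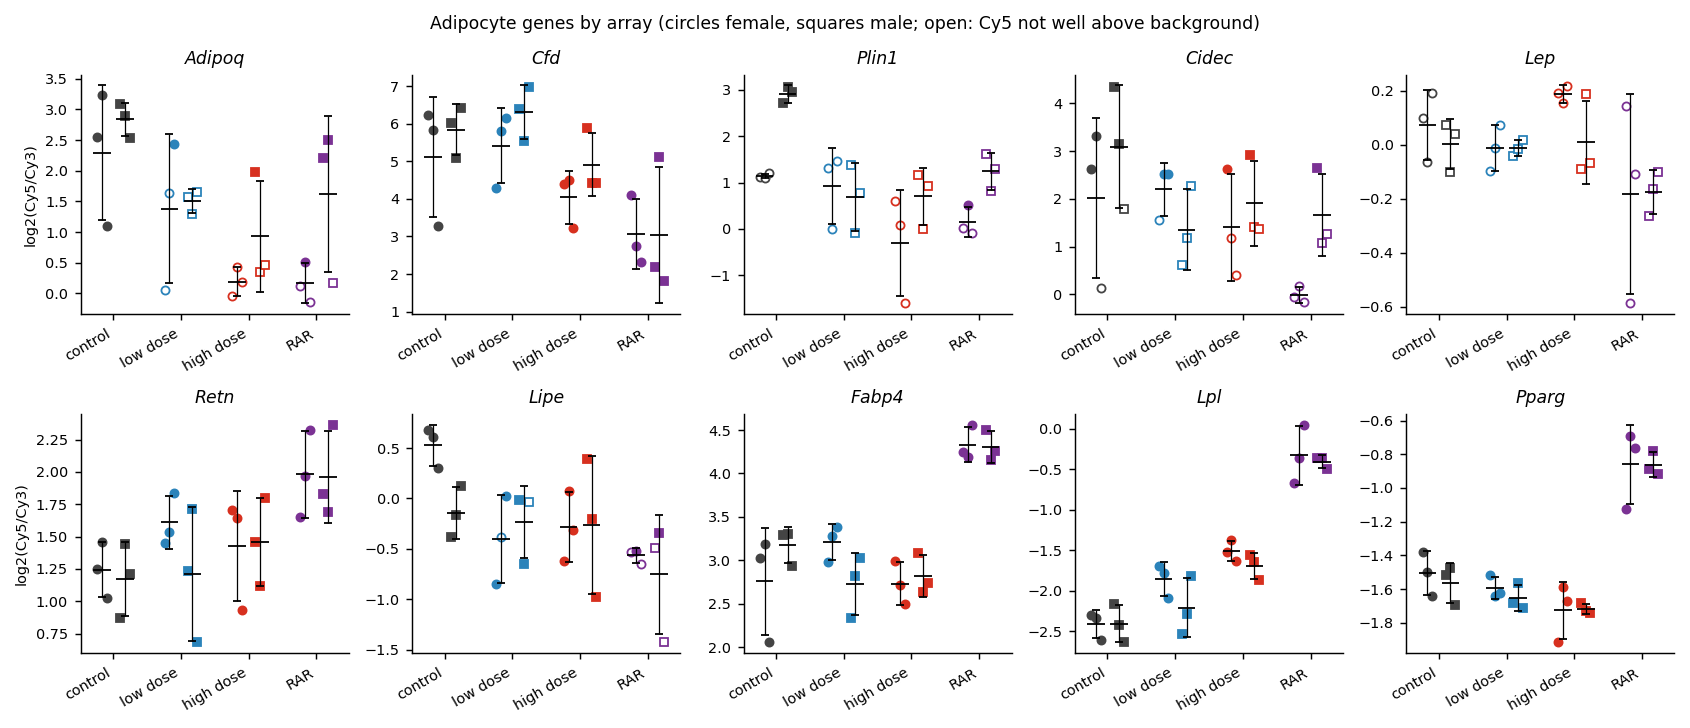
log2(Cy5/Cy3) of the 10 genes on each of the 24 arrays, by treatment, with circles for females, squares for males, open symbols where Cy5 was not well above background, and lines for the mean and SD of the 3 arrays of a group. The 6 RAR arrays of Fabp4, Lpl and Pparg stand above all other arrays, and those of Adipoq range from -0.13 to 2.49.

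RAR against low dose compares mice with and without the high dose after the same priming dose. The choice of genes around Adipoq rested on control and high dose values. The study's pick of the Adipoq probe also used its sex differences in RAR and low dose. In RAR, Fabp4, Lpl and Pparg rose and Cfd fell. These were 4 of 10 genes called by limma (a call needs an adjusted p below 0.05 with a 1.5-fold change or more), beside 9.07% of all probes. The 3 higher genes stand beside 4.78% of all probes called higher, and the 1 lower gene beside 4.29% called lower. The median difference of the 10 genes was -0.14 on the log2 scale, and that of all probes was -0.01. The arrays of the 2 treatments did not overlap for 3 genes, all higher in RAR, beside 3.97% of all probes. Adipoq differed by -0.55 ± 0.45 (SE; limma adjusted p = 0.472), with a 95% interval from -1.50 to 0.41. Plin1 differed by -0.11 (adjusted p = 0.881), Cidec by -0.96 (0.277 as adjusted p), Lipe by -0.34 (adjusted p = 0.364) and Lep by -0.17 (adjusted p = 0.271). RAR and low dose shared slide 2 alone, and the same 4 genes stayed called with the slide as a block.

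In RAR against control the genes moved in both directions. Of the 9 tested genes 8 were called by limma, 4 higher and 4 lower, beside 26% of all probes (12.4% higher and 13.7% lower). Fabp4, Lpl, Pparg and the brighter probe of Retn rose, and Cfd, Cidec, Plin1 and Lipe fell. The other Retn probe was called lower, and with it in place of the brighter one the split would be 3 higher and 5 lower. The 4 higher genes did not overlap the controls on any array, beside 9.96% of all probes, while 0 of the lower ones were free of overlap, beside 14.9% of all probes. With the other Retn probe these counts would be 3 and 1. The slides bear on this comparison: with the slide as a block, 4 of the 9 stayed called (Cfd, Fabp4, Lpl and Pparg), and without female RAR replicates 2 and 3 the count was also 4.

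RAR against high dose compares mice with and without the priming dose, and both treatments shared slides 1 and 2. Of 9 tested genes, 3 were called, all higher in RAR (Fabp4, Lpl and Pparg), beside 9.52% of all probes called and 5.29% called higher. These 3 did not overlap between the treatments, beside 4.59% of all probes with higher arrays in RAR. The 3 comparisons share the RAR arrays, so they are not independent of one another.

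**Figure D2:**
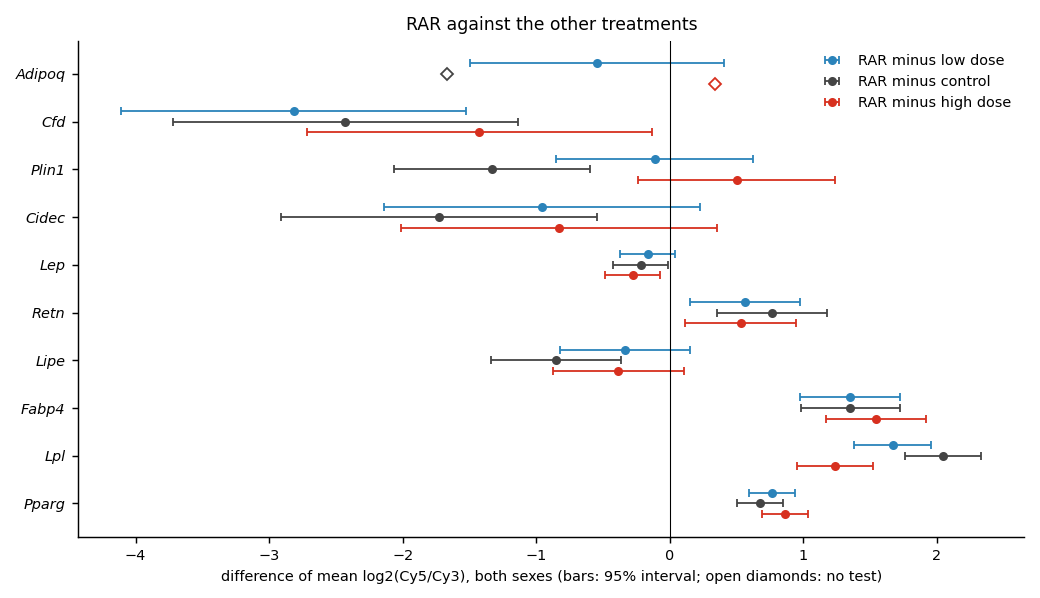
Difference of mean log2(Cy5/Cy3) between RAR and low dose, control or high dose for the 10 genes, with bars for the 95% interval of the limma fit and open diamonds where no test is given. Fabp4, Lpl and Pparg lie above 0 in all 3 comparisons, and the intervals of Plin1 and Cidec exclude 0 only against control.

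Fabp4 encodes the fatty acid-binding protein of adipocytes and macrophages. Its log2 ratio ran from 4.15 over 4.25 to 4.56 in RAR, against 2.05 over 3.11 to 3.31 in controls, 2.34 over 3.00 to 3.39 after the low dose and 2.49 over 2.73 to 3.09 after the high dose. All 6 RAR arrays were above all 18 others. The rise was 1.35 ± 0.18 (SE) over low dose (2.54-fold, limma adjusted p = 2.67e-05), 1.35 ± 0.18 over control (2.55-fold, adjusted p = 4.79e-06) and 1.54 ± 0.18 over high dose (2.91-fold, adjusted p = 8.55e-06).

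Lpl encodes lipoprotein lipase, which frees fatty acids from circulating lipoproteins. Its log2 ratio ran from -0.67 over -0.36 to 0.05 in RAR, from -1.87 over -1.59 to -1.38 after the high dose, from -2.53 over -1.95 to -1.69 after the low dose, and from -2.63 over -2.38 to -2.17 in controls. RAR stood above the other treatments, and the high dose stood above the controls without overlap. The rise in RAR was 1.67 ± 0.14 over low dose (3.18-fold, adjusted p = 1.19e-07), 2.05 ± 0.14 over control (4.13-fold, adjusted p = 1.18e-09) and 1.23 ± 0.14 over high dose (2.35-fold, adjusted p = 5.45e-06). The second probe of Lpl was higher 3.02-fold, 2.84-fold and 2.14-fold in the same comparisons, each called.

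Pparg, the gene of the fat cell regulator, was measured by 10 spots on each array. Its log2 ratio ran from -1.13 over -0.83 to -0.69 in RAR, and the 18 other arrays lay between -1.92 and -1.38. RAR was again above every other array. The rise was 0.76 ± 0.08 over low dose (1.70-fold, adjusted p = 3.08e-06), 0.67 ± 0.08 over control (1.60-fold, adjusted p = 1.95e-06) and 0.86 ± 0.08 over high dose (1.82-fold, adjusted p = 1.09e-06). In the Cy5 channel alone the rises were 0.71, 0.65 and 0.85 in the same order. Relative to the shifts of all probes on that scale they were 0.43, 0.12 and 0.54, each under 1.5-fold. Without female RAR replicates 2 and 3 the log2 ratio differed from control by 0.54, under 1.5-fold.

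Within slides the same 3 genes were higher in RAR wherever both treatments were present. Against the high dose, Fabp4 differed by 1.39 on slide 1 (4 arrays each) and by 1.85 on slide 2 (2 each), Lpl by 1.05 and 1.61, and Pparg by 0.84 and 0.91. Against the low dose on slide 2 (2 RAR and 3 low dose arrays), the differences were 1.51, 1.77 and 0.75 in the same order of genes. Against the 1 control array on slide 2 they were 1.25, 2.02 and 0.69.

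Cfd encodes adipsin, a serine protease of the alternative complement pathway. Its log2 ratio ran from 3.28 over 5.93 to 6.42 in controls, from 4.29 over 5.99 to 6.97 after the low dose, from 3.23 over 4.43 to 5.89 after the high dose and from 1.81 over 2.53 to 5.13 in RAR. RAR was lowest by median and overlapped each of the other treatments. It was 7.04-fold lower than the low dose (log2 difference -2.81 ± 0.61, limma adjusted p = 0.00244) and 5.39-fold lower than controls (-2.43 ± 0.61, adjusted p = 0.00353). The difference from the high dose was -1.43 ± 0.61 (adjusted p = 0.112), and without male RAR replicate 2, the highest RAR array, it was -1.95 (adjusted p = 0.017). Without female RAR replicates 2 and 3 the adjusted p was 0.0526 against low dose and 0.0659 against control.

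The Cy5 intensities of Cfd gave another order of treatments. They ran from 1040 over 1383 to 2671 in controls, from 339.5 over 608 to 1267 after the low dose, from 209.9 over 487 to 1263 after the high dose and from 116 over 239 to 480 in RAR. Every RAR array was below every control. The Cy3 intensity of this probe was between 7.08 and 27.4 on the low dose arrays and between 16.2 and 107 on the control arrays. On the scaled Cy5 channel alone Cfd was lower after the low dose than in controls (-1.32 ± 0.39, adjusted p = 0.0178), whereas its ratio was higher by 0.39 (adjusted p = 0.772). On this scale RAR was lower than control (-2.66, adjusted p = 1.36e-05) and than low dose (-1.34, adjusted p = 0.0141). Relative to the shifts of all probes (0.29 in RAR against low dose), Cfd differed by -1.48, -3.18 and -1.62 in these 3 comparisons.

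**Figure D3:**
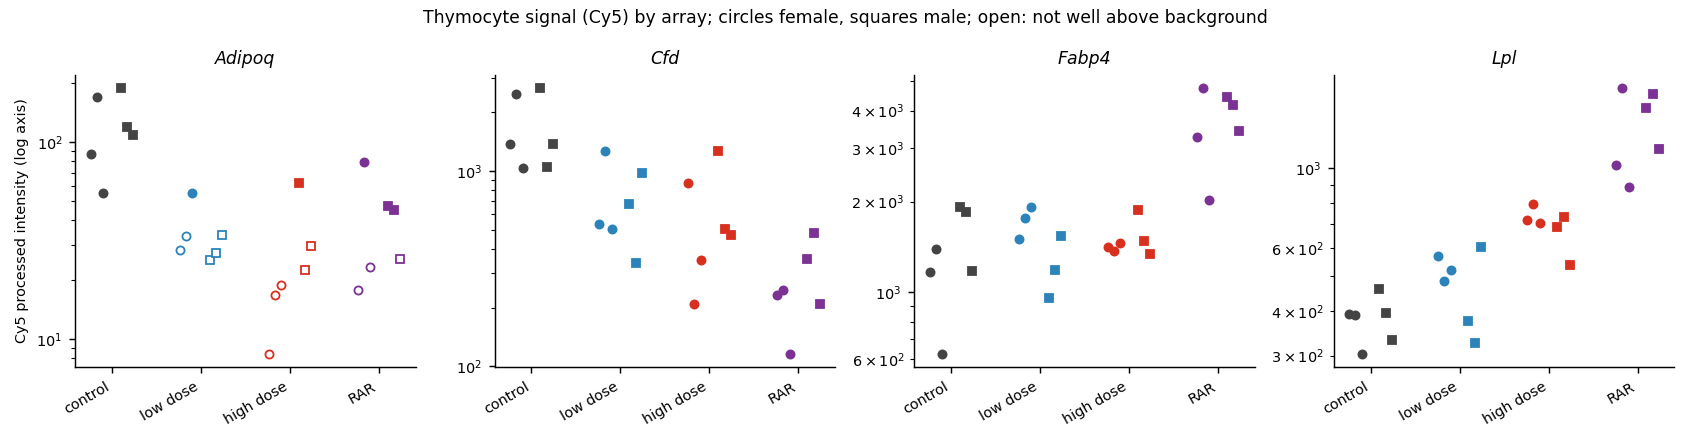
Processed Cy5 intensity, on a log axis, of Adipoq, Cfd, Fabp4 and Lpl on each array, by treatment, with circles for females, squares for males and open symbols where the probe was not well above background. The 6 control arrays of Cfd lie between 1040 and 2671 and the 6 RAR arrays between 116 and 480.

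Retn encodes resistin, a secreted protein of mouse fat cells. Its brighter probe ran from 1.65 over 1.90 to 2.36 in RAR and from 0.87 over 1.23 to 1.45 in controls, without overlap. RAR was higher than control by 0.76 ± 0.20 (1.70-fold, adjusted p = 0.00406), which did not hold with the slide as a block (0.85, adjusted p = 0.094), and higher than low dose by 0.56, under 1.5-fold (adjusted p = 0.0493). Without female RAR replicate 1, male RAR replicate 2 or male low dose replicate 2, the difference from low dose passed both thresholds (0.64, 0.63 and 0.69). In the Cy5 channel alone the brighter probe differed from control by 0.78, or by 0.26 relative to the shift of all probes. The second probe went the other way. It was 2.14-fold lower in RAR than in control (adjusted p = 2.52e-04) and 1.58-fold lower than after the low dose (-0.66, adjusted p = 0.029), and with it 5 of 10 genes would be called against low dose, 3 higher and 2 lower. Both probes carry the same accession in the array files, so no direction can be given for the gene.

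Plin1 and Cidec coat the lipid droplet, perilipin 1 as the gatekeeper of lipolysis and CIDEC as a factor that lets droplets fuse and grow. Plin1 was well above background in Cy5 on the 3 male control arrays and on female RAR replicate 2 only. Male controls gave log2 ratios of 2.71, 3.06 and 2.96, female controls averaged 1.14, and the other 18 arrays lay between -1.60 and 1.61. The ratio of Plin1 was lower in RAR than in control (-1.33 ± 0.35, adjusted p = 0.00471), and it was the only one of 9 tested genes called after the low dose (-1.22 ± 0.35, adjusted p = 0.0164), beside 9.92% of all probes called and 4.83% called lower. Since 1 of 6 RAR and 0 of 6 low dose arrays were above background in Cy5, and 0 of 24 in Cy3, these differences rest mostly on values at background, and no fold is given over both sexes. In males, Plin1 in controls was at least 1.73-fold above RAR (adjusted p of the log2 ratio = 0.0135) and at least 1.35-fold above the low dose (adjusted p of the log2 ratio = 0.00644), with 0 of 3 arrays above background in either. In females, where no control array was above background, the differences were -0.99 (adjusted p = 0.159) and -0.21 (adjusted p = 0.891). With the slide as a block the differences over both sexes were -0.81 (adjusted p = 0.371) and -0.97 (adjusted p = 0.0809), and the Cy5 channel alone gave -0.27 (adjusted p = 0.537) and -0.69 (adjusted p = 0.222). Relative to the shifts of all probes on that scale, the latter were -0.79 and -0.85. Without female or male low dose replicate 2 the call after the low dose was lost as well (-0.99 and -1.03, adjusted p = 0.0512 and 0.0532).

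Cidec ran from 0.12 over 2.88 to 4.35 in controls, from 0.61 over 1.92 to 2.53 after the low dose, from 0.41 over 1.40 to 2.93 after the high dose and from -0.16 over 0.63 to 2.65 in RAR. The 3 female RAR arrays were the lowest group, at -0.06, 0.17 and -0.16, and 0 of them were above background. The ratio was lower in RAR than in control (-1.73 ± 0.56, adjusted p = 0.0196), a call that was lost without female control replicate 2 (-1.41, adjusted p = 0.0626) or male control replicate 1 (-1.41, 0.0628 as adjusted p) and with the slide as a block (0.15 as adjusted p). Cidec was above background in Cy5 on 4 of 6 control and 1 of 6 RAR arrays, and in Cy3 on 0 of 24, so no fold is given for it. The second Cidec probe, above background on 3 arrays, differed from control by 0.28 (adjusted p = 0.544).

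Lipe encodes the hormone-sensitive lipase, which cleaves diglyceride during lipolysis. It ran from -0.39 over 0.21 to 0.68 in controls and from -1.43 over -0.52 to -0.34 in RAR, with a small overlap of the ranges. Lipe was above background in Cy5 on 6 of 6 control and 2 of 6 RAR arrays, so no fold is given. Its ratio was lower in RAR than in control (-0.85 ± 0.23, limma adjusted p = 0.00606). The difference was -0.32 (adjusted p = 0.336) in the Cy5 channel alone, or -0.85 relative to the shift of all probes, and -0.56 (adjusted p = 0.321) with the slide as a block. Lep, the gene of leptin, was measured by 10 spots and lay between -0.59 and 0.22 on all arrays, and it was not well above background in either channel on any array.

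In high dose against control, 4 of the 10 genes were at least 1.5-fold lower, beside 10.4% of all probes: Adipoq (0.56 against 2.57), Plin1 (0.19 against 2.03), Cfd (4.48 against 5.48) and Cidec (1.66 against 2.55). In Cy5, Adipoq was above background on 1 of 6 high dose arrays, Plin1 on 0 and Cidec on 2. Plin1 and Cidec were so in Cy3 on 0 of 24 arrays. The differences of Adipoq, Plin1 and Cidec thus rest largely on values at background. The second Cidec probe differed by 0.10, and the count was smaller with normexp, as given below. Lpl was higher by 0.81 with no overlap between the arrays, beside 5.43% of all probes, and its second probe by 0.41 with overlap. Fabp4, Pparg, Lipe and the brighter probe of Retn differed by -0.19, -0.19, -0.47 and 0.23. The second Retn probe went the other way by -0.70, which is 1.63-fold lower. These values are descriptions, since the genes were chosen from this contrast, and the female high dose and female control arrays shared no slide.

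Between male and female RAR, 0 of 9 tested genes were called by limma, beside 0.438% of all probes. Plin1 and Cidec had the lowest unadjusted p in limma (0.0411 and 0.0494), and the share of all probes this low was not counted. Lipe differed by -0.19, and Fabp4, Lpl, Pparg, Cfd, Lep and Retn by -0.08 to 0.01. The second probes of Retn, Lpl and Cidec differed by 0.46, 0.26 and -0.29 (limma adjusted p = 0.546, 0.673 and 0.831). The ratio of Plin1 differed by 1.09 (adjusted p = 0.398) and that of Cidec by 1.68 (adjusted p = 0.421), both without overlap of the 3 and 3 arrays, beside 7.19% of all probes. Plin1 was above background in Cy5 on 0 of 3 male and 1 of 3 female RAR arrays and Cidec on 1 of 3 male and 0 of 3 female RAR arrays, so no fold is given. In the Cy5 channel alone the arrays of the sexes overlapped for both genes. There Plin1 differed by -0.089 and Cidec by 0.92, or by 0.086 and 1.09 relative to the shift of all probes. Adipoq gave 2.21, 2.49 and 0.17 in male RAR and 0.12, 0.52 and -0.13 in female RAR, a difference of 1.46 that became -0.085 in scaled Cy5, against a shift of all probes by -0.18 in the median. The Cy5 intensities of Adipoq were 47.6, 45.0 and 25.4 in male RAR and 17.8, 79.4 and 23.2 in female RAR, with the highest value on the array with the most spots above background. The interaction of sex and treatment was called for 0 of 9 tested genes by limma's F-test, beside 0.00359% of all probes. The unadjusted p of this test ran from 0.0662 (Plin1) to 0.961 (Pparg).

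Correlations of the log2 ratios over the 24 arrays, which share treatments and slides, are given as a description. Fabp4, Pparg and Lpl went together, with Pearson's r of 0.87 (Fabp4 and Pparg), 0.83 (Fabp4 and Lpl) and 0.81 (Pparg and Lpl). Adipoq went with Cidec (0.70), Plin1 (0.64), Cfd (0.62) and Lipe (0.59). Across these pairings, r was -0.02 for Adipoq and Fabp4, -0.45 for Adipoq and Lpl and -0.69 for Cfd and Lpl. After the mean of each group was removed, Adipoq kept an r of 0.76 with Lipe, 0.71 with Cfd and 0.58 with Cidec but 0.06 with Plin1. Fabp4 then had 0.88 with Cidec, 0.55 with Adipoq and Lpl alike and 0.18 with Pparg. In the Cy5 channel alone the r of Adipoq with Lipe was -0.09.

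**Figure D4:**
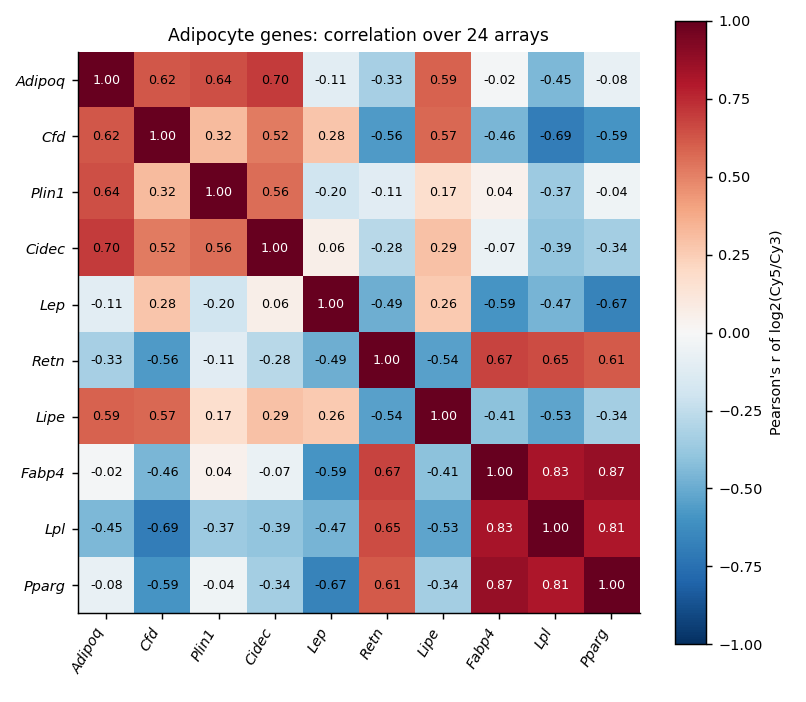
Pearson's r of log2(Cy5/Cy3) between each pair of the 10 genes over the 24 arrays, from -1 (blue) to 1 (red). Fabp4, Lpl and Pparg form a block of r from 0.81 to 0.87, and Adipoq has its highest values with Cidec, Plin1, Cfd and Lipe.

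The genes most like Adipoq were sought among 14967 named genes that were well above background in Cy5 on at least 6 arrays. The 10 with the highest r over the 24 arrays were Gpd1 (0.84), Ucp1 (0.80), Cox8b (0.79), Thrsp (0.79), Cidea (0.76), Tom1l1 (0.76), Bcl9 (0.75), Igfbp5 (0.74), Slc2a4 (0.74) and Stab2 (0.74). Of these, 6 are in the lists of fat genes described next: Gpd1, glycerol-3-phosphate dehydrogenase, Thrsp, a regulator of fat synthesis, Slc2a4, the insulin-responsive glucose transporter, Cidea, a droplet protein, and Ucp1 and Cox8b, mitochondrial proteins typical of brown fat. The median log2 ratio of Ucp1 was 4.15 in controls, 1.37 after the low dose, 1.08 after the high dose and 2.14 in RAR. That of Cox8b was 3.72, 1.73, 0.89 and 1.06 in the same order. In Cy5, Ucp1 was well above background on 9 arrays, Thrsp and Cidea on 15 each and Cox8b on 19. On the Cy5 channel alone, 3 of the 10 stayed among the 10 highest (Thrsp at rank 1, Cidea at rank 2 and Cox8b at rank 9), and Gpd1 fell to rank 137.

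Of 16 genes of fuel storage and uptake, 6 were called lower (Acaca, Scd1, Thrsp, Fasn, Slc2a4 and Gpd1) and 1 higher (Cd36) in RAR against control, beside 13.7% of all probes called lower. For this and the following lists the fit had no slide block, and RAR and control shared a slide only through 1 control array. Acaca, which commits carbon to fatty acid synthesis, differed by -0.71, the desaturase Scd1 by -1.11 and Thrsp by -2.78 (adjusted p = 2.24e-07, 8.14e-07 and 1.48e-05). After the low dose 6 of the 16 were called lower than control (Acaca, Scd1, Acsl1, Fasn, Thrsp and Gpd1), beside 4.83% of all probes. Against the high dose RAR had 1 higher (Cd36, 2.11) and 0 lower, beside 5.29% of all probes called higher. Cd36, a fatty acid translocase also made by macrophages, was above background on 8 arrays.

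Of 10 genes of the lipid droplet and lipolysis, 3 were lower (Cidea, Mgll and Adrb3) and 2 higher (Plin2 and Abhd5) in RAR than in control, beside 13.7% of all probes called lower and 12.4% higher. Plin2, the droplet coat of cells other than adipocytes, rose by 1.52 over control and by 1.12 over low dose (adjusted p = 3.87e-09 and 1.33e-06). Abhd5, the co-activator of adipose triglyceride lipase, rose by 0.85 and 0.77. Cidea fell by 2.46 against control (adjusted p = 5.99e-05). It was above background in Cy5 on 15 arrays, and Adrb3 on 13.

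Of 11 regulators of fat cell formation, 4 rose and 1 fell against control, beside 12.4% of all probes called higher. Cebpd rose by 2.78, Cebpb by 3.56 and Nr1h3, the liver X receptor α, by 2.48 (adjusted p = 7.86e-13, 2.49e-12 and 1.37e-11). After the low dose alone, Cebpd and Cebpb were also higher than control (2.38 and 1.80, limma adjusted p = 2.09e-11 and 6.59e-08). Nr1h3 then differed by 0.51, under 1.5-fold. After the high dose the 3 differences from control were 2.56, 1.97 and 0.63, without a test. In RAR against the low dose 3 of the 11 rose, beside 4.78% of all probes, Nr1h3 by 1.98, Cebpb by 1.76 and Cebpa by 1.51. Cebpd differed there by 0.40 and was not called. Cebpa, Cebpb and Nr1h3 are also expressed in macrophages.

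Of 7 brown fat genes, 4 fell (Cox7a1, Cox8b, Dio2 and Ucp1) and Zic1 rose in RAR against control, beside the same shares of all probes. Cox7a1 differed by -0.75, Zic1 by 2.64 and Cox8b by -2.25 (adjusted p = 9.03e-07, 5.41e-05 and 0.00233). Of 11 other adipocyte genes, 4 fell and 2 rose beside these shares, with Pde3b at 0.93 and Car3 at -2.06 (adjusted p = 3.50e-07 and 7.94e-05). Of 12 receptors and protein partners of the 10 genes, 4 rose against control, beside 12.4% of all probes, and 0 fell. The fatty acid-binding Fabp5 rose by 2.29, Abhd5 by the 0.85 given above and Apoc2, the cofactor of lipoprotein lipase, by 1.07 (adjusted p = 9.50e-11, 1.40e-05 and 0.00203). Fabp5 also rose by 2.66 over low dose.

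Macrophage markers moved with Fabp4, Lpl and Pparg. Of 12 such markers, 9 were called higher and 0 lower in RAR against low dose, 8 and 0 against control, and 8 and 0 against high dose, beside 4.78%, 12.4% and 5.29% of all probes called higher, and 10 of the 12 were above background on all 24 arrays. The lysosomal Cd68 rose by 1.56 over low dose, the receptor Csf1r by 1.14 and the Fc receptor Fcgr1 by 2.95 (adjusted p = 6.02e-09, 4.97e-07 and 3.08e-06). The summed Cy5 level of the 12 markers, in units of each array's 75th percentile, ran from 44.7 to 82.3 in RAR and from 21.7 to 34.4 on the other arrays. That of the 11 thymocyte markers ran from 443 to 634 in RAR and from 748 to 999.8 elsewhere. The log2 ratios of the thymocyte markers showed no shift of this size. Their median difference in RAR was -0.13 against low dose, 0.04 against control and -0.01 against high dose. A sum weighs the brightest probes most. On the scaled Cy5 channel the median of all probes itself moved in RAR, by 0.29, 0.52 and 0.31 in the same order. The part of the shifts in these sums in the rise of Fabp4, Lpl and Pparg was not tested.

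**Figure D5:**
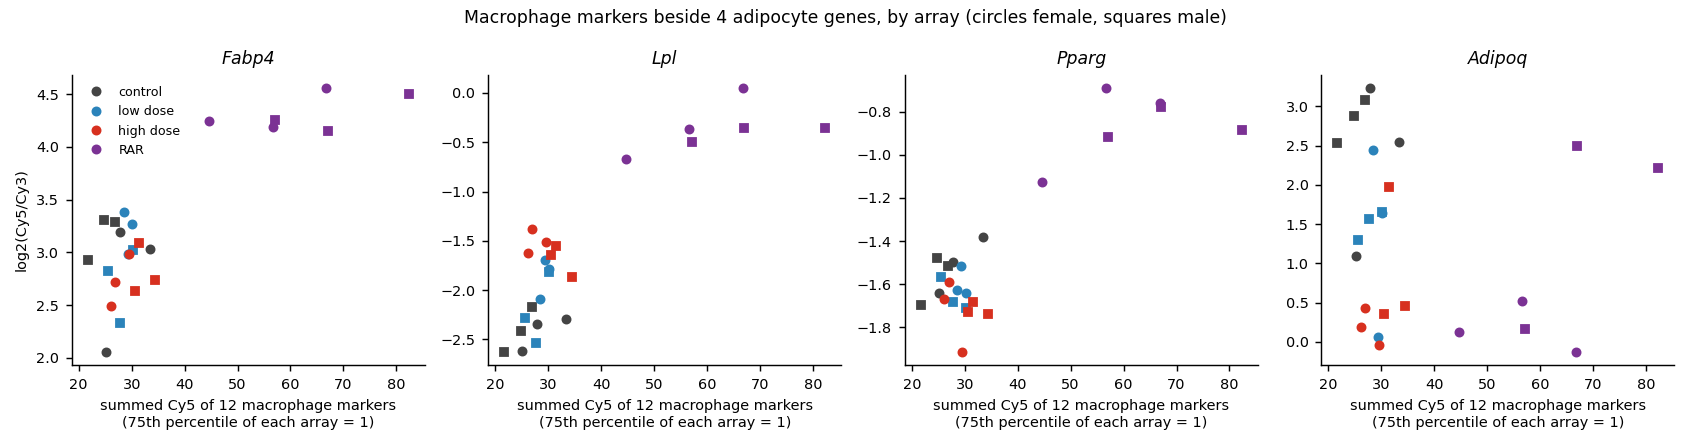
Summed Cy5 level of 12 macrophage markers (x axis, each array's 75th percentile as unit) against log2(Cy5/Cy3) of Fabp4, Lpl, Pparg and Adipoq, 1 point per array, coloured by treatment. The RAR arrays lie apart on the x axis, from 44.7 to 82.3, and stand highest for Fabp4, Lpl and Pparg but are spread over the range of Adipoq.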

How the data were processed

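RNA of 24 thymocyte preparations was measured on Agilent 2-colour arrays without dye swaps. Per the file headers, the authors' files came from Feature Extraction 11.5.1.1 (the methods name another version) and hold, per spot, processed intensity in both channels, background-subtracted and dye-normalized within the array. They also hold flags that the authors' software set for background, saturation and outliers. In the deposited table of log2 ratios, 100% of values on each array lay within 0.01 of the log2 ratio of these signals. After control spots and 183 to 368 outlier spots per array were removed, the spots of a probe were averaged, giving 55681 probes with 660 values missing; none of the spots was saturated. Genes were named by accession from a RefSeq table (28026 probes), and no gene coordinates were taken from the array files. The number of arrays limits the precision. Replicates were separate mice.

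The log2 ratios were analysed with limma 3.58.1 (R 4.3.3) in a model with a mean for each of the 8 groups (16 residual degrees of freedom), and treatments were compared as the mean of both sexes. Multiple testing over the 55681 probes was handled with the Benjamini-Hochberg procedure, and the 1.5-fold threshold is that of the methods. The code was tested on simulated data. The 10 genes and all gene lists (fuel genes, droplet and lipolysis genes, regulators, other adipocyte genes, brown fat, partners, macrophage, endothelium, stroma, thymic epithelium, thymocytes, B cells, erythroid cells, muscle) were chosen with earlier results of these data known. Named genes are the 10 members, the 10 genes most correlated with Adipoq, and from each list at most the 3 called genes with the lowest adjusted p in a comparison; any other gene was chosen after its values were seen, and some genes that this rule names are not reported here. Lower bounds of folds used single-channel values after loess and Aquantile, with the lowest signal well above background on an array as floor, and are subject to dye bias. Tables were made with Python 3.11.15 and pandas 2.3.3, figures with matplotlib 3.10.9. Alternatives were normexp with loess, quantile normalization, the deposited table, the Cy5 channel alone (each array scaled by its 75th percentile), probes above background, the slide or replicate number as a block, the value farthest from its group mean removed, a log2 change of at least 1.5, another probe per gene, each sex alone, each array left out and, added after seeing the data, female RAR replicates 2 and 3 left out.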

Additional observations from a re-analysis of the deposited data

How the results depend on the processing

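The calls of Fabp4, Lpl and Pparg against low dose and high dose held under each alternative run with the 1.5-fold threshold. In the Cy5 channel alone, relative to the shift of all probes, Fabp4 differed by 1.08 and 1.28 and Lpl by 1.21 and 0.89. On that scale Pparg differed by 0.43 and 0.54, both under 1.5-fold. With a log2 change of at least 1.5 the counts of called genes were 2 (RAR against low dose), 3 (RAR against control), 1 (RAR against high dose) and 0 (low dose against control), and 2 genes were lower after the high dose by that much. RAR against control went from 8 of 9 to 5 with normexp and loess, 5 in the Cy5 channel alone, 4 with the slide as a block, 4 in females alone and 4 without female RAR replicates 2 and 3. Low dose against control went from 1 to 0 with the slide as a block and in females alone, and to 2 with the value farthest from its group mean left out. That setting also gave 2 genes for male against female RAR and 5 for the interaction of sex and treatment, and it narrows the spread by its construction. With normexp, 1 gene was at least 1.5-fold lower after the high dose instead of 4. Apart from the setting of each value, the cause was not tested.

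Leaving out 1 array at a time gave 4 to 5 called genes for RAR against low dose, 7 to 8 against control, 3 to 4 against high dose, 0 to 1 for low dose against control, 0 to 0 for the sex difference in RAR and for the interaction, and 3 to 5 lower genes after the high dose. The fit assumes that the 2 remaining arrays of a group vary like the other groups. Directions turned, among others, for Cfd after the low dose (-0.81 with normexp, -1.32 in the Cy5 channel alone) and for Adipoq between the sexes in RAR (-0.085 in the Cy5 channel alone, or 0.09 relative to the shift of all probes). For Plin1 between the sexes in RAR these values were -0.089 and 0.086. Among 2068 values of single genes under an alternative, 32 lost a call, 12 gained one and 67 changed sign without being called before or after. The replicate numbers did not pair the arrays, with correlations of the same number from -0.16 to 0.22, and 8 of 24 arrays correlated best with their own number. With the replicate block the counts in the 5 treatment comparisons were 4, 8, 3, 1 and 4, as without it. Over all probes, the counts of calls ran across alternatives from 469 to 12136 for RAR against low dose (5050 as reported), from 2924 to 26431 against control (14501), from 471 to 12680 against high dose (5303) and from 634 to 11670 for low dose against control (5526). Between the sexes in RAR they ran from 189 to 10358 (244), and for the interaction from 0 to 33572 (2). Signal over background limits Adipoq, Plin1, Cidec and Lep.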

Other observations

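Markers of other thymic cells also differed between RAR and control, in the fit without the slide as a block. These treatments shared a slide only through 1 control array. Of 10 thymic epithelium markers, 4 were called lower and 2 higher: the cortical proteasome subunit Psmb11 differed by -4.08, the keratin Krt8 by 1.33 and the serine protease Prss16 by -1.73 (limma adjusted p = 9.26e-07, 6.49e-07 and 1.11e-05). Psmb11 was well above background on 8 arrays. It also differed from control by -3.98 after the low dose (limma adjusted p = 5.94e-06) and by -4.33 after the high dose, without a test. Between RAR and low dose it differed by -0.10. After the low dose Prss16 differed from control by -0.95 and Krt8 by 0.13 (limma adjusted p = 0.00774 and 0.659). Of 8 B cell markers, 4 were lower and 0 higher, with Ms4a1 at -0.81 (adjusted p = 4.12e-04). Of 10 stromal markers, 3 were higher and 1 lower, with Col1a2 at 1.09, Sparc at 1.39 and Lum at -1.74 (adjusted p = 1.52e-07, 3.05e-07 and 9.69e-06).

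Of 10 endothelial markers, 1 was higher (Flt1, 2.73) and 3 were lower, and of 11 thymocyte markers 2 were higher (Rag1 and Cd8b1, 0.79 and 0.68) and 2 lower (Themis and Ptcra, -0.75 and -0.65). Among the lower endothelial markers, Cdh5 and Cldn5 were well above background in Cy5 on only 2 and 3 arrays. Of 7 erythroid markers, 2 were higher and 1 lower, and of 8 skeletal muscle markers 1 was higher and 2 lower, led by Mylpf at -2.00. These counts stand beside 12.4% of all probes called higher and 13.7% called lower.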
